A study of Mus with 2 samples.

Results

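The proteasome subunit genes were examined in single hematopoietic stem cells (HSCs) and in the other cells caught in the same sort. The members are all genes whose symbol begins with Psma, Psmb, Psmc or Psmd and a number. The 3 interferon-inducible subunits Psmb8, Psmb9 and Psmb10, the unrelated Psmc3ip and any symbol marked as a pseudogene were left out. This gave 36 of the 27998 genes in the count tables: 8 Psma, 8 Psmb, 6 Psmc and 14 Psmd genes. They are scattered over 16 chromosomes in RefSeq's annotation of GRCm38.p6, with 6 on chromosome 11 and 5 on chromosome 2.

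The 2 samples were marrow of tibia and fibula from Mx1-Cre Id2+/+ mice (Id2+/+) and from Mx1-Cre mice whose Id2 gene had been deleted (Id2 deleted). Each was 1 library. For each, 5 mice of 8 to 12 weeks were pooled and 1000 LSK FLT3- CD150+ CD48- cells, the surface phenotype of HSCs, were sorted from the pool and captured on the 10x Genomics Chromium. Both groups carry Mx1-Cre, a recombinase driven by an interferon-responsive promoter, and the study's methods describe poly(I:C) given to start deletion. The paper states that the sequenced HSCs of both genotypes were taken 2 weeks after poly(I:C). Recombination is thus not limited to stem cells, and both pools share the transgene. The study addresses how ID2 keeps HSCs quiescent, including by protecting HIF-1α from breakdown in the proteasome, and the question here is how the mRNAs of the proteasome itself stood in the sorted cells.

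The proteasome degrades proteins that carry a ubiquitin chain. Its 20S core is a stack of alpha rings, built from the Psma proteins and forming the gate, around beta rings built from the Psmb proteins, of which Psmb5, Psmb6 and Psmb7 hold the cutting sites. The 19S cap on the core consists of the Psmc ATPases, which unfold and feed in the substrate, and the Psmd subunits, which bind and remove ubiquitin or hold the lid together. In cells exposed to interferon and in many blood cells, Psmb8, Psmb9 and Psmb10 take the places of Psmb5, Psmb6 and Psmb7 and make the immunoproteasome.

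The Id2+/+ library held 8612217 unique molecular identifiers (UMIs) and the Id2 deleted library 17140713. After filters, 333 and 625 cells were left, with only 1 barcode in common. Removing 44 and 169 erythroid-like cells and 27 and 38 neutrophil-like cells, named from their marker genes, left 262 Id2+/+ and 418 Id2 deleted retained cells, the HSCs and near progenitors, with medians of 7081 and 9663 UMIs per cell. The retained cells of the Id2 deleted library include an unnamed cluster of 72 cells led by the myeloid genes Tyrobp and Lyz2, with Cd48, which the sort selected against, among its leading genes, and an unnamed one of 63 cells led by Gata1, with the platelet gene Gp5. The Id2+/+ library had 1 and 0 cells in these clusters. Id2 itself had 22 UMIs in the retained Id2+/+ cells and 0 in the Id2 deleted ones. Female-type cells (Xist but no Y-linked UMI) made up 32.1% of the retained Id2+/+ cells and 55.5% of the Id2 deleted ones, and male-type cells (a Y-linked UMI but no Xist) 35.5% and 21.5%. Levels are UMIs of a gene per 1e6 UMIs (CPM) summed over the cells of a library, with 95% exact intervals that cover counting error only. A UMI marks 1 molecule whatever its length, and levels were not divided by length. As each genotype is a single library, no replicate check and no test were possible, and the genotype cannot be told apart from the library, the pool or its sexes.

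Proteasome mRNAs were read at many UMIs per retained cell. The members took 14232 UMIs in the Id2+/+ library and 38211 in the Id2 deleted library. The lowest cell had 11 and 25 member UMIs, where free RNA from outside the cell, estimated from haemoglobin UMIs, would bring a mean of 8.48 and 6.86 per cell, so presence in a single cell was not read from these counts. When each cell was thinned to 5800 UMIs, which left out 66 Id2+/+ cells and no Id2 deleted cell, the median retained cell showed 21 of the 36 members in the Id2+/+ library and 23 in the Id2 deleted library. Unthinned, the medians were 24 and 28. Among the 35 members with at least 20 UMIs, the median level was 156 CPM in Id2+/+ and 182 CPM in Id2 deleted cells.

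**Figure D1:**
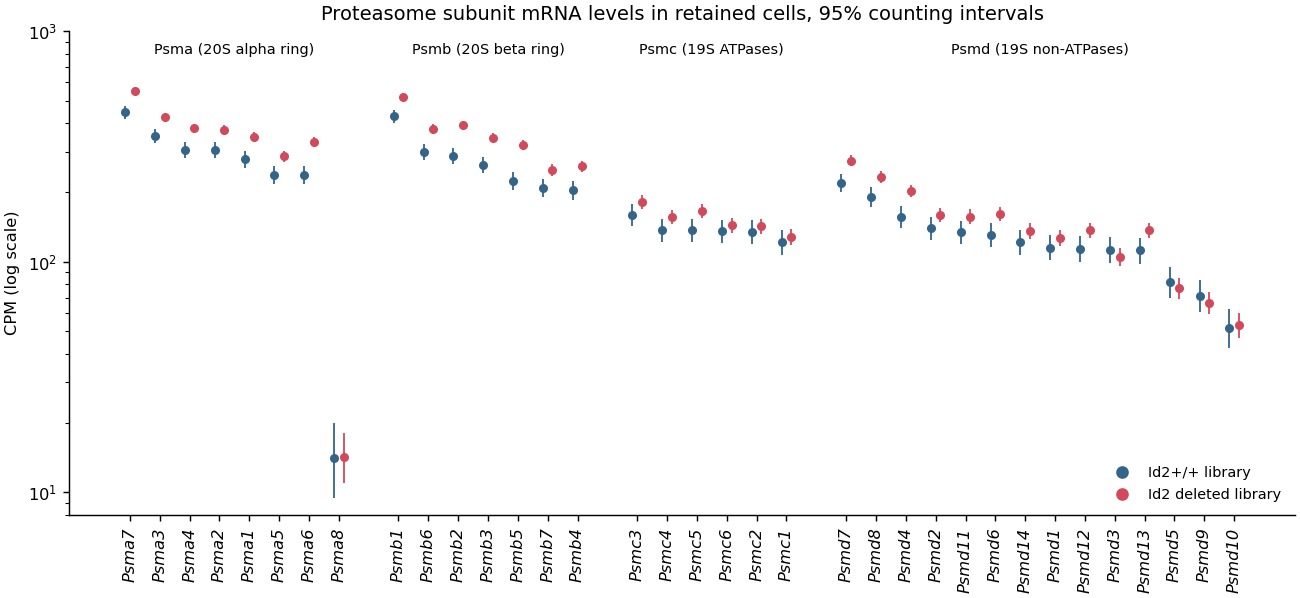
Level of the 35 counted members in retained cells, in CPM on a log axis, by family and in descending order of the Id2+/+ level. Points are library sums and bars 95% counting intervals. Core subunits on the left lie mostly above the cap subunits on the right, and Psma8 stands far below the rest at 14.1 and 14.2 CPM.

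The core subunits gave more UMIs than the cap subunits. The 16 genes of the core (Psma and Psmb) summed to 4092 CPM (interval 4007 to 4179) in Id2+/+ cells against 2579 CPM (2511 to 2648) for the 20 genes of the cap. Psma7 was the highest member, at 446 CPM in Id2+/+ and 553 CPM in Id2 deleted cells, followed by the beta subunit Psmb1 at 427 and 517 CPM. The highest ATPase was Psmc3, with 160 and 182 CPM, and the lowest Psmc1, with 122 and 128 CPM. In both libraries the levels of all 5 pairs of neighbours in the ATPase order overlapped within their intervals, while those of Psmc3 and Psmc1 did not overlap. Psmd7, a scaffold of the lid, led the Psmd genes at 220 and 274 CPM. Over the 35 counted members the order was nearly the same in the libraries, with a Spearman rho of 0.984, which is across genes that are not independent replicates.

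The low end of the order held the members that are no part of the standard particle. Psmd10, Psmd9 and Psmd5, chaperones that help the ATPase ring assemble and then leave, were the 3 lowest Psmd genes in both libraries, at 51.6, 71.2 and 81.6 CPM in Id2+/+ cells and 53.1, 66.2 and 76.6 CPM in Id2 deleted cells. Psma8 is an alpha subunit known from the testis, where it replaces Psma7. It had 30 and 67 UMIs, or 14.1 CPM (interval 9.49 to 20.1) and 14.2 CPM (11 to 18.1). Psmb11, the catalytic subunit of cortical thymic epithelium, had no UMI in either library, a limit of 1.41 CPM in Id2+/+ and 0.637 CPM in Id2 deleted retained cells from 3 counts. On chromosome 14 Psmb11 (54625310 to 54629556) lies 7314 bases from Psmb5 (54614120 to 54617995), which was read at 224 and 320 CPM.

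Proteasome mRNA made up a larger part of the Id2 deleted library than of the Id2+/+ library. The 36 members summed to 6671 CPM (interval 6562 to 6781) in the retained Id2+/+ cells and 8112 CPM (8031 to 8194) in the Id2 deleted ones, a ratio of 1.22 (1.19 to 1.24). The core differed more than the cap: 4092 against 5165 CPM for the core, a ratio of 1.26 (1.23 to 1.29), and 2579 against 2947 CPM for the cap, a ratio of 1.14 (1.11 to 1.18). By family the ratios were 1.24 for Psma, 1.28 for Psmb, 1.11 for Psmc and 1.16 for Psmd. The core's share of member UMIs was 61.3% (60.5 to 62.1) in Id2+/+ and 63.7% (63.2 to 64.2) in Id2 deleted cells. Empty droplets, which hold free RNA, had a lower core share in both libraries, 51.8% and 57.9%. The free RNA in the retained cells, estimated from their haemoglobin UMIs, was 10.5% in Id2+/+ and 5.41% in Id2 deleted cells. With that amount subtracted the core shares were 63.1% and 64.1%, and their intervals then overlapped.

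Most of the members stood higher in the Id2 deleted library and none stood clearly lower. Of the 35 counted members, 20 (57.1%) reached a ratio of 1.2 or more, beside 16.7% of the 10465 genes with at least 20 UMIs, and 0 lay at 1/1.2 or less, beside 32.1% of genes. An interval wholly above 1 was seen for 23 members, beside 10.2% of genes, and one wholly below 1 for 0 members, beside 13.2%. Among the 34 members that averaged at least 50 CPM the counts were 20 higher, beside 19.5% of such genes, and 0 lower, beside 12.4%. The median log2 ratio of the members was 0.27, with a range of -0.11 to 0.51 and 32 of 35 above 0, against -0.09 for all genes counted, 0.06 for the genes of at least 50 CPM and 0.07 for cytosolic ribosomal protein genes. Many members lay close to the limit of 1.2, and of the 20 at or past it 9 were so in female-type cells, 17 in male-type cells, 8 in HSC-like cells alone and all 20 with free RNA subtracted, where 26 members in all reached it. None of the 20 had a ratio below 1 in these 4 settings, in which the share of all genes past 1.2 was not counted. Once the ratios were centred on the genes of at least 50 CPM, a shift of 0.07 on the log2 scale, 7 members were at or past it, and the summed ratio was 1.16.

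**Figure D2:**
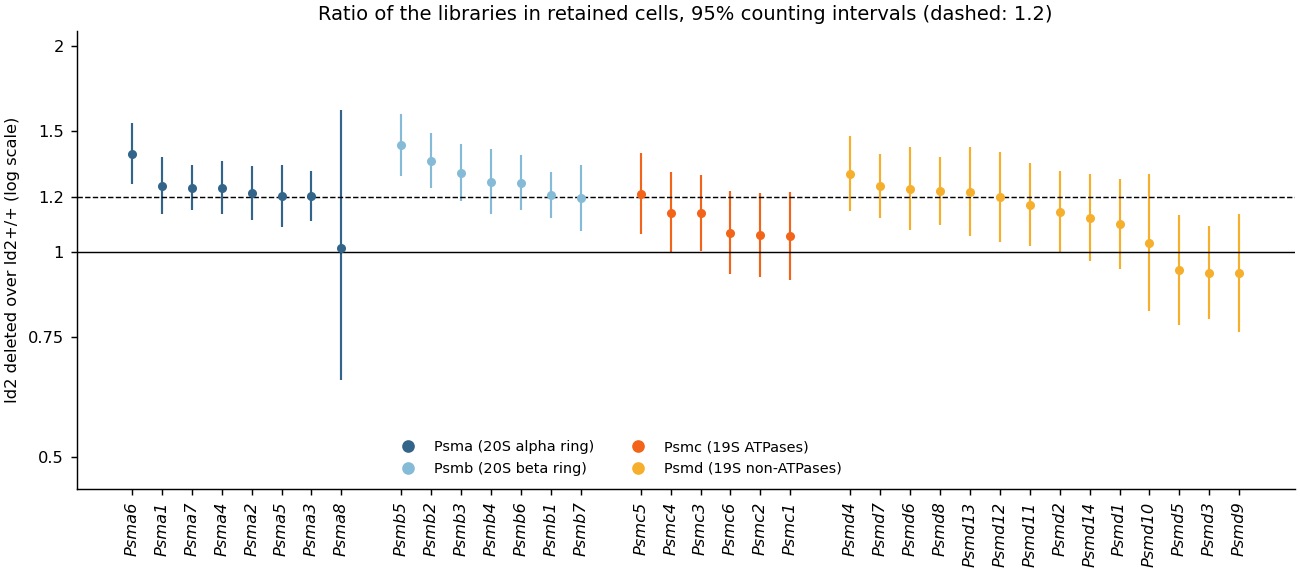
Ratio of the Id2 deleted to the Id2+/+ library for each counted member in retained cells, on a log axis with 95% counting intervals, by family and in descending order. The solid line is 1 and the dashed line 1.2. All 7 Psmb points lie between 1.2 (rounded) and 1.43, and 3 Psmd genes lie below 1.

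In the beta ring all 7 counted members had intervals above 1. Psmb5, which carries the chymotrypsin-like site, showed the largest ratio of any member, with 224 CPM in Id2+/+ and 320 CPM in Id2 deleted cells, a ratio of 1.43 (1.29 to 1.59). Psmb6, the caspase-like subunit, had 299 and 377 CPM, a ratio of 1.26 (1.15 to 1.38). Psmb7, the trypsin-like subunit, had 209 and 250 CPM, a ratio of 1.2 (1.07 to 1.34) that falls just under the limit before rounding. The intervals of all 3 cutting subunits lay above 1, but in female-type cells Psmb7 had a ratio of 1.05 (0.891 to 1.24). The structural beta subunits Psmb2 and Psmb3 followed Psmb5, at 287 and 390 CPM with a ratio of 1.36 (1.24 to 1.49), and at 263 and 343 CPM with a ratio of 1.30 (1.18 to 1.44).

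In the alpha ring Psma6 led, with 238 and 331 CPM and a ratio of 1.39 (1.26 to 1.54). Psma1 to Psma5 and Psma7 lay within a narrow band of 1.21 to 1.25, each with an interval above 1. In female-type cells the intervals of Psma2, Psma4, Psma5 and Psma7 held 1, with ratios of 1.11, 1.07, 1.01 and 1.10. Psma8 had a ratio of 1.01 (0.649 to 1.61), too few UMIs to place it.

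The cap was uneven. Among the ATPases Psmc5 passed 1.2, at 137 and 167 CPM with a ratio of 1.21 (1.06 to 1.39). With free RNA subtracted 5 of the 6 did, Psmc1 at 1.22 and Psmc3 at 1.28 among them, and in HSC-like or female-type cells alone 0 did. Without that subtraction the intervals of Psmc1, Psmc2, Psmc4 and Psmc6 held 1. In the Psmd group Psmd4, which binds ubiquitin chains, was the highest at 156 and 203 CPM, a ratio of 1.30 (1.15 to 1.48). Psmd7, Psmd6, Psmd8, Psmd13 and Psmd12 also passed 1.2, all of them lid subunits. In HSC-like cells alone none of these 5 lid genes did, with Psmd7 at 1.02 (0.855 to 1.21). In female-type cells Psmd13 alone of them did, at 1.46 (1.14 to 1.89), beside 1.16 (0.868 to 1.56) in male-type cells. The partner of Psmd7, the deubiquitinating enzyme Psmd14, had 122 and 137 CPM, and its interval of 0.968 to 1.30 held 1. The 5 lowest ratios of all members belonged to Psmd9 (0.93), Psmd3 (0.93), Psmd5 (0.94), Psma8 (1.01) and Psmd10 (1.03), and each interval held 1. That set takes in the 3 assembly chaperones, beside Psmd3, a lid subunit, and the testis subunit.

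The gap between the libraries was not limited to the retained cells. Erythroid-like cells had 9010 CPM of members in the Id2+/+ and 10805 CPM in the Id2 deleted sample, which is a ratio of 1.2 (1.18 to 1.22), or 1.15 (1.13 to 1.18) without haemoglobin-rich cells. The libraries' erythroid-like cells fell mostly in different clusters, with 27 Id2+/+ and 0 Id2 deleted cells in one, 0 and 57 in another, and 8 and 99 in a shared one, beside the haemoglobin-rich cluster of 9 and 13. In the shared cluster the sums were 9416 and 10734 CPM, a ratio of 1.14 (1.09 to 1.19). Neutrophil-like cells had 7385 and 8470 CPM, a ratio of 1.15 (1.10 to 1.2). The RNA of the empty droplets gave 9937 and 11251 CPM, a ratio of 1.13 (1.12 to 1.15), in which the core differed by a ratio of 1.27 and the cap by 0.988 (0.969 to 1.01). In erythroid-like cells 15 of 35 members reached 1.2, beside 23.1% of genes, and 0 reached 1/1.2, beside 23.6%. In neutrophil-like cells 14 of 34 did, beside 24.2%, and 1 (Psmc1) lay at 1/1.2 or less, beside 26.8%. Intervals lay wholly above 1 for 24 members in erythroid-like cells but for only 3 in neutrophil-like cells, and wholly below 1 for 0 in either. The share of all genes with such intervals was not counted in these cells. Psmb5 had ratios of 1.10 (0.994 to 1.22) in erythroid-like and 1.2 (0.974 to 1.49) in neutrophil-like cells.

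Several properties of the retained cells moved with the proteasome sum. Summed S-phase genes were 3151 CPM in Id2+/+ and 3860 CPM in Id2 deleted cells, and G2/M genes 3347 and 4257 CPM. Genes of the dissociation stress response were lower in the Id2 deleted library, at 2058 against 2976 CPM. When each library's retained cells were ranked by their share of cell-cycle UMIs and split into 4 equal bins, the members climbed from 5787 CPM in the lowest bin to 6246, 6565 and 7468 CPM in the highest in Id2+/+ cells, and from 6994 to 7521, 8367 and 8829 CPM in Id2 deleted cells. The median depth climbed too, from 6121 to 11096 and from 7666 to 14603 UMIs per cell, so cycling and RNA content move together here. With the pooled median of the cell-cycle share as the dividing line, the ratio was 1.17 (1.14 to 1.21) in the cells at or below it and 1.18 (1.15 to 1.21) in those above it. Female-type cells gave 1.16 (1.12 to 1.19), male-type cells 1.25 (1.21 to 1.30) and cells without a Fos UMI 1.23. The sum was the higher in the Id2 deleted library in each of these 5 subsets of cells. The part of cycling, depth, stress and sex in the gap was not tested.

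**Figure D3:**
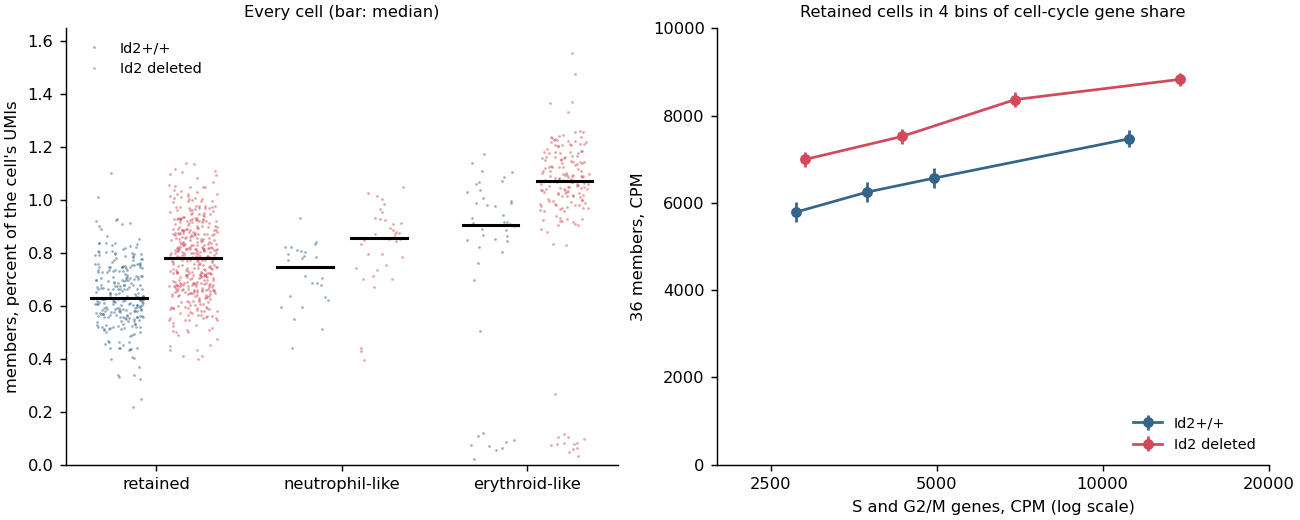
Left, the members' percent of each cell's UMIs by cell kind and library, with a bar at the median. Right, the members' summed CPM with 95% counting intervals in 4 bins of retained cells by cell-cycle share, plotted against the bin's cell-cycle CPM on a log axis. The Id2 deleted line runs above the Id2+/+ line in every bin, and a low group of erythroid-like cells is the haemoglobin-rich one.

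From cell to cell the members' share overlapped between the libraries. In retained Id2+/+ cells the members took a median of 0.632% of UMIs, with quartiles of 0.564% and 0.733% and a range of 0.22% to 1.10%. The Id2 deleted cells had a median of 0.782%, quartiles of 0.675% and 0.880% and a range of 0.399% to 1.14%. The full ranges overlap widely, and the interquartile ranges overlap between 0.675% and 0.733%. Over these 262 and 418 cells the share had a Spearman rho of 0.46 and 0.48 with the cell-cycle share, 0.47 and 0.54 with depth and -0.44 and -0.58 with the share of ribosomal protein UMIs. With the share of stress-response UMIs it was -0.07 in Id2+/+ and 0.23 in Id2 deleted cells. The points share a library and the shares a denominator, so these are descriptions only.

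Clusters of the retained cells followed the libraries and were compared within each. The largest Id2+/+ cluster, 170 HSC-like cells led by Meg3 and Fos, had 6088 CPM of members (5944 to 6235), and an unnamed one of 79 cells led by Hspa1a and Timm8a1, with Pcna among its leading genes, had 7248 CPM (7071 to 7428). In the Id2 deleted library the HSC-like clusters led by Cd74 (71 cells) and by Xist and Myl10 (100 cells) were the lowest, with 6855 CPM (6640 to 7076) and 7078 CPM (6900 to 7258). The former passed the limit for 4 HSC markers, but Cd74, H2-Aa, H2-Eb1 and H2-Ab1, genes of antigen presentation, were among its 10 leading genes, beside Procr as the one HSC marker. In the same library the platelet-biased HSC-like cluster of 67 cells, led by Pf4, was the highest at 9131 CPM (8969 to 9295). Its 10 leading genes held Pf4 and Gp1bb of the platelet markers, but also Aurkb, Top2a and Ckap2l of the G2/M genes. In it 33 of 35 members were above their level in the library's other retained cells. The share of all genes above theirs was not counted. That cluster also had the deepest cells, with a median of 18276 UMIs, and the most S-phase RNA, 5911 CPM. Between HSC-like cells alone the libraries stood at 6088 and 6979 CPM, a ratio of 1.15 (1.11 to 1.18). There 9 members reached 1.2 and 1, Psmd3, lay at 1/1.2 or less. Without the cluster led by Cd74 the ratio was 1.16 (1.12 to 1.2), with 10 members at 1.2 or more and 2, Psmd3 and Psmd5, at 1/1.2 or less. The clusters led by Tyrobp and by Gata1 had 8140 and 8086 CPM, and with both left out the ratio over the retained cells was 1.22 (1.19 to 1.24), with 17 members higher and 0 lower. The share of all genes past 1.2 was not counted in these subsets, so their member counts have no background beside them.

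Erythroid-like cells carried the most proteasome mRNA of the 3 cell kinds. These cells are led by Klf1, Car1 and, in a small group, the haemoglobins, and lie outside the sorted phenotype. Their members summed to 1.35 times the retained level (1.32 to 1.38) in the Id2+/+ library and 1.33 times (1.32 to 1.35) in the Id2 deleted library. In Id2+/+ cells 28 of 35 members reached 1.2 times the retained level, beside 26.4% of genes, and in Id2 deleted cells 26 did, beside 27.0%. Only Psma8 lay at 1/1.2 or less in either, beside 53.5% and 52.3% of genes. The members' median log2 ratio was 0.53 in Id2+/+ and 0.50 in Id2 deleted cells, where that of all genes was -0.34 and -0.32. Erythroid-like cells were also deeper, with medians of 33770 and 38755 UMIs, and their G2/M genes stood at 10222 and 12198 CPM. The part of cycling and depth in the difference was not tested.

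**Figure D4:**
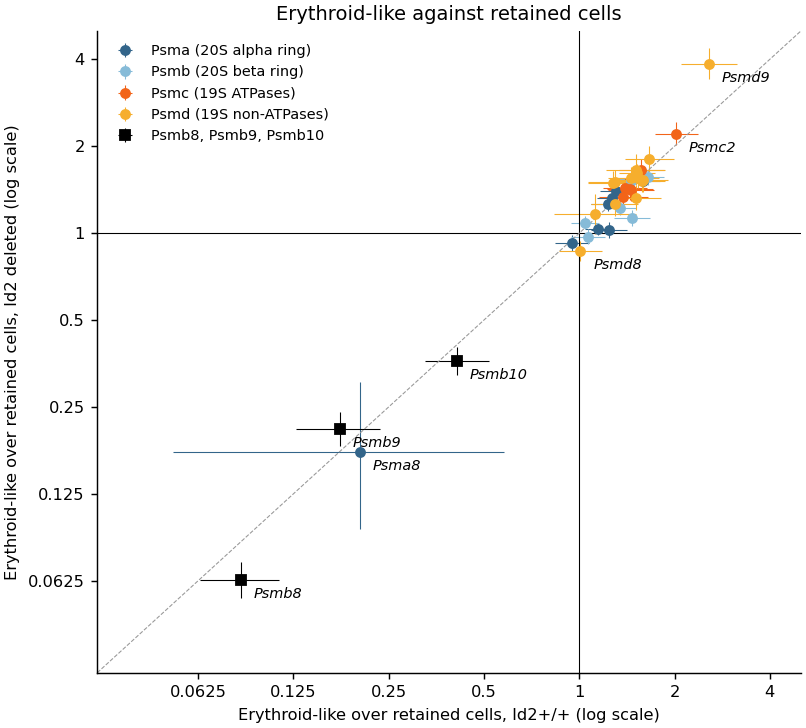
Ratio of erythroid-like to retained cells for each counted member and for the 3 immunoproteasome subunits, in the Id2+/+ library (horizontal) and the Id2 deleted library (vertical), on log axes with 95% counting intervals. The dashed line marks equal ratios. Members cluster between 0.87 and 2.21 apart from Psmd9 above and Psma8 below, and Psmb8, Psmb9 and Psmb10 lie far below 1 in both libraries.

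Cap genes were raised over core genes in the erythroid-like cells. The cap sum was 1.49 times (1.43 to 1.54) the retained one in Id2+/+ and 1.53 times (1.5 to 1.56) in Id2 deleted cells, while the core sum was 1.27 times (1.23 to 1.31) and 1.22 times (1.2 to 1.24). The core share of member UMIs was 57.5% and 58.2%, below that of the retained cells in each library. Psmd9 had the highest ratio by a distance. It stood at 71.2 CPM in retained and 183 CPM in erythroid-like Id2+/+ cells, a ratio of 2.57 (2.09 to 3.16), and at 66.2 and 256 CPM in Id2 deleted cells, a ratio of 3.86 (3.42 to 4.37). Empty droplets held Psmd9 at 181 CPM in Id2+/+ and 233 CPM in Id2 deleted libraries, above its retained level in both. Between the libraries Psmd9 had a ratio of 0.93 (0.76 to 1.14) in retained cells and of 1.40 (1.23 to 1.6) in erythroid-like cells, whose clusters differed between the libraries. In the erythroid-like cluster of 8 Id2+/+ and 99 Id2 deleted cells its ratio was 1 (0.790 to 1.29), from 73 and 1140 UMIs. The difference between retained and erythroid-like cells was not tested.

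The ATPase Psmc2 came next, with 135 and 274 CPM in Id2+/+ and 143 and 315 CPM in Id2 deleted cells, ratios of 2.03 (1.74 to 2.37) and 2.21 (2.03 to 2.42). Psmd3, one of the lowest between genotypes, was 1.66 and 1.80 times as high in erythroid-like as in retained cells. At the other end of the Id2+/+ order, apart from Psma8, Psma4 stood at 0.95 and 0.92, Psmd8 at 1.01 and 0.87 and Psmb1 at 1.04 and 1.08. In Id2 deleted cells Psmb6 (0.97), Psma6 (1.02) and Psma7 (1.03) also lay below Psmb1. Psma8 was at 2.86 and 2.49 CPM in erythroid-like cells, a ratio of 0.20 (0.05 to 0.58) in Id2+/+ and 0.18 (0.09 to 0.31) in Id2 deleted cells.

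The haemoglobin-rich erythroid cells were the exception to the high level. These 9 Id2+/+ and 13 Id2 deleted cells had 776 and 796 CPM of members, 0.12 and 0.10 times the retained level, with haemoglobin at 87.8% of their UMIs. They held 63 and 89 member UMIs in all. Free RNA was estimated to bring a mean of 8.48 and 6.86 member UMIs to each retained cell. Reckoned without haemoglobin UMIs the ratios were 0.90 and 0.84, but with so few member UMIs the cells' own level cannot be told apart from free RNA.

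Neutrophil-like cells stood nearer to the retained cells. The ratio of the sums was 1.11 (1.07 to 1.15) in Id2+/+ and 1.04 (1.02 to 1.07) in Id2 deleted cells. In Id2+/+ cells 7 members reached 1.2, beside 19.1% of genes, and 4 lay at 1/1.2 or less, beside 60.7%. In Id2 deleted cells 8 did, beside 16.3%, and 7 lay low, beside 63.9%. The upward counts are near the background share. Psmb2 (1.61 and 1.35), Psma6 (1.6 and 1.33) and Psmb3 (1.47 and 1.31) were the 3 highest members in Id2+/+ cells and above 1.2 in both libraries. Psmc2 and Psmd13 were also above 1.2 in both, but their Id2+/+ intervals, 0.934 to 1.57 and 0.924 to 1.64, held 1. Psmd1, a large scaffold of the cap's base, was low in both at 0.68 (0.46 to 0.96) and 0.64 (0.48 to 0.84). Psmd3, Psmd9 and Psma8 also lay at 1/1.2 or less in both, but the intervals of Psmd9 and Psma8 held 1 in both. That of Psmd3 held 1 in Id2+/+ cells. Psma8 had only 5 neutrophil-like UMIs in each library.

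The mRNA shares within the pairs of catalytic subunits differed strongly between cell kinds. Protein and its assembly into the particle were not measured. Psmb8, which replaces Psmb5, was at 444 and 509 CPM in the retained cells of the Id2+/+ and the Id2 deleted library, at 359 and 322 CPM in neutrophil-like cells and at 37.9 and 32.1 CPM in erythroid-like cells. Set against Psmb5, it took 66.5% (63.9 to 68.9) of the pair's UMIs in retained Id2+/+ cells and 61.4% (59.8 to 62.9) in Id2 deleted cells, but 10.4% (7.85 to 13.3) and 8.17% (7.13 to 9.31) in erythroid-like cells. Psmb9 took 40.1% and 35.7% of its pair with Psmb6 in retained cells and 9.88% and 10.7% in erythroid-like cells. Psmb10 took 44.3% and 44.8% of its pair with Psmb7 in retained cells and 18.4% and 16.1% in erythroid-like cells.

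**Figure D5:**
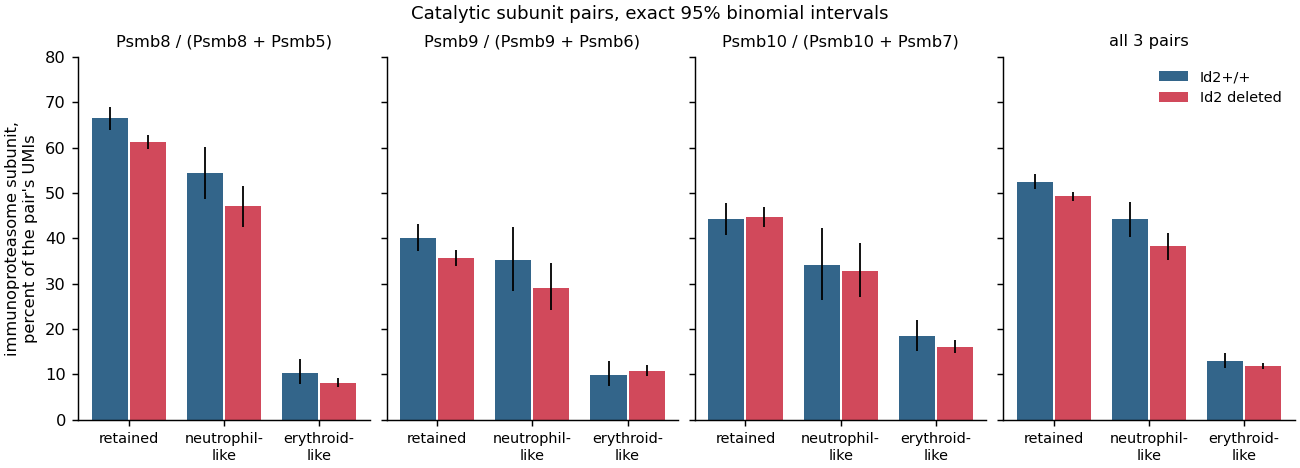
Share of the immunoproteasome subunit in the UMIs of each catalytic pair, and over all pairs, by cell kind and library, in percent with exact 95% binomial intervals. Bars start at 0. Retained cells stand highest at 52.5% and 49.3% over all pairs, neutrophil-like cells at 44.2% and 38.3%, and erythroid-like cells lowest at 12.9% and 11.9%.

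Over the 6 catalytic genes the immunoproteasome share was 52.5% (50.8 to 54.3) in retained Id2+/+ and 49.3% (48.2 to 50.3) in Id2 deleted cells. It was 44.2% (40.3 to 48.1) and 38.3% (35.3 to 41.3) in neutrophil-like cells and 12.9% (11.3 to 14.7) and 11.9% (11.2 to 12.6) in erythroid-like cells. In empty droplets Psmb8 stood at 213 and 129 CPM, above its erythroid-like level. At 5800 UMIs per cell Psmb8 was seen in 91.8% of retained and 21.4% (10.3 to 36.8) of erythroid-like Id2+/+ cells, and in 93.8% and 10.1% (5.97 to 15.6) of Id2 deleted cells. The share of cells that free RNA alone would mark was not counted, so presence in a single cell was not read from these values. The lower share in retained Id2 deleted cells came with a larger ratio for Psmb5 (1.43) than for Psmb8, at 1.15 (1.06 to 1.24). Psmb9 had 200 and 210 CPM, a ratio of 1.05 (0.934 to 1.18), and Psmb10 166 and 203 CPM, a ratio of 1.22 (1.08 to 1.38). Among HSC-like cells alone the shares were 55.8% and 54.1%. Among the clusters of retained Id2 deleted cells the share was lowest in the platelet-biased HSC-like one, 41.6% (39.7 to 43.5).

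The other genes of the pathway were counted in lists chosen by function. Of the 5 activators and inhibitors, Psme2 alone passed 1.2 between the libraries, at 161 and 218 CPM, a ratio of 1.36 (1.2 to 1.54), and none lay low. Psme2 and its partner Psme1 form the activator that pairs with the immunoproteasome, and both were lower in erythroid-like than in retained cells, at 0.73 and 0.59 times for Psme2 and 0.42 times in both libraries for Psme1. Psmf1, which inhibits the proteasome, ran the other way, at 2.2 (1.66 to 2.93) and 2.86 (2.44 to 3.36) times. Of the 5 core assembly chaperones counted, 3 passed 1.2 and none lay low, with Psmg1 at 170 and 471 UMIs, a ratio of 1.25 (1.05 to 1.5).

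Among 9 ubiquitin receptors and hydrolases that dock on the cap, 3 were past 1.2 and 1 below 1/1.2. The deubiquitinase Uchl5 had 110 and 139 CPM, a ratio of 1.27 (1.09 to 1.48), whereas the shuttle Ubqln2 had 55.8 and 37.2 CPM, a ratio of 0.67 (0.52 to 0.85). Of the 5 genes for ubiquitin and its activating enzyme, 0 passed 1.2 and 1 lay at 1/1.2 or less. Their median log2 ratio was -0.19, with 3 intervals wholly below 1 and 1 wholly above it. Their sum ran the other way, at 8561 CPM in Id2+/+ and 8911 CPM in Id2 deleted retained cells.

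Of the 5 genes that control proteasome transcription, 0 passed 1.2 and 2 lay low. They were Nfe2l1, the factor that drives proteasome genes when the proteasome is short, at 19.7 and 14.4 CPM, a ratio of 0.73 (0.49 to 1.10), and Ngly1, which processes it, at 56.2 and 42.0 CPM, a ratio of 0.75 (0.59 to 0.95). The ligase that marks HIF-1α for the proteasome showed Rbx1 at 354 and 458 CPM, a ratio of 1.29 (1.19 to 1.40), and its elongins Tceb1 and Tceb2 at 1.25 each, 3 of 5 genes past 1.2. Its substrate receptor Vhl, with 10.8 and 11.5 CPM, had a ratio of 1.06 (0.64 to 1.82), and the scaffold Cul2 1.11 (0.81 to 1.54). These counts stand beside the same background shares as the members, 16.7% of genes higher and 32.1% lower.

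RefSeq lists processed copies of Psma5, Psmb5, Psmb6 and Psmb7, and Psmd10, Psmd1, Psma4 and Psma3 overlap another annotated gene. Reads could be shared or lost at these loci, so their absolute levels are less certain than those of the others.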

How the data were processed

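Single-cell libraries of sorted mouse HSCs were analysed, 1 per genotype. The authors deposited raw, unnormalized UMI counts for 27998 genes in 737280 barcodes per library. The submitters' processing notes name Cell Ranger 2.2.0 and mm10. The labels' text for the deleted sample once mentions Id2+/+ bones, but its title and genotype set the group.

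A barcode was called a cell at 10% or more of the 99th percentile of the 1000 deepest barcodes, and those whose mitochondrial UMIs reached 10% were dropped. The labels give 383 and 686 cells, and 349 and 632 barcodes were called. The 2000 most variable genes (without the members and related lists), 20 components, 15 neighbours and Leiden clustering at resolution 1 were used in scanpy 1.11.5. Clusters in which 4 markers of another type passed a log2 fold of 1, in 25% of cells, with lower HSC markers, were set apart. Retained cells were clustered again at resolution 0.8 and given the class of highest mean marker fold when 3 of its markers passed a log2 fold of 0.5 in 10% of cells and no other class had more markers among the 10 leading genes. Other clusters stayed unnamed. Empty droplets held at most 100 UMIs. Doublets were not removed in the reported values. Scrublet marked 2 and 1 cells.

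Summed counts have exact Poisson intervals as CPM, and ratios have exact conditional binomial intervals. Shares have Clopper-Pearson intervals, all at 95%. Log2 ratios added 0.5 UMIs. Genes with at least 20 UMIs over both sides of a comparison were counted, and a gene was counted as higher or lower at a ratio of 1.2. For a count of 0 the limit is 3 counts. Named genes were the catalytic subunits, the 5 highest and 5 lowest ratios, the highest and lowest level of each family, members under the filter, and the related lists. Other members were named after their values were seen. Paaf1 of the chaperone list was not matched, and a few genes of the related and marker lists are not reported here. Positions are RefSeq's for GRCm38.p6, the assembly of mm10. Members, lists and rules were chosen with earlier results of these data known. Interval code was tested on simulated data. TMM scaling used edgeR 4.0.16 in R 4.3.3.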

Additional observations from a re-analysis of the deposited data

How the results depend on the processing

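No paired analysis was possible because the genotypes have a single library each, and for the same reason no replicate could be left out. The summed ratio between the libraries stayed above 1, between 1.15 and 1.28, under the 23 alternatives that gave one, and the members' median log2 ratio above 0, between 0.12 and 0.35, under 25. The summed ratio and median were 1.27 and 0.33 with TMM scaling, 1.28 and 0.34 with median-of-ratios scaling (shifts of 0.07 and 0.08 on the log2 scale), 1.27 and 0.35 with no cell type removed, and 1.26 and 0.31 with free RNA subtracted. Lower values came from the HSC-like cells alone (1.15 and 0.12, with 9 members higher and 1 lower), female-type cells (1.16 and 0.19, with 12 higher and 1 lower) and cells thinned to 5800 UMIs (1.17 and 0.20, with 13 higher and 1 lower), which leaves out the shallow Id2+/+ cells. With no cell type removed 1 member was lower, and male-type cells gave 1.25 with 2 lower. At a ratio of 1.5, 0 members were counted as higher or lower. For the subsets of cells the share of all genes past the limit was not counted. Alternatives chosen after seeing the data were cells at or below the median cell-cycle share (1.17 and 0.17, with 12 higher and 2 lower, and Psmc3 reversed to 0.97), cells above it (1.18 and 0.23), centring on genes of at least 50 CPM (1.16 and 0.20, with 7 higher), HSC-like cells without the cluster led by Cd74 (1.16 and 0.17, with 10 higher and 2 lower), retained cells without the clusters led by Tyrobp and Gata1 (1.22 and 0.26, with 17 higher and 0 lower), and erythroid-like cells without the haemoglobin-rich ones, whose ratio to retained cells was 1.43 in Id2+/+ and 1.35 in Id2 deleted cells.

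With free RNA subtracted, the erythroid-like ratio was 1.43 in Id2+/+ and 1.36 in Id2 deleted cells, the neutrophil-like ratio in Id2+/+ cells 1.15, and the immunoproteasome share of retained cells 55.2% and 50.7%. As a mean over cells the erythroid-like ratio was 1.19 in Id2+/+ and 1.30 in Id2 deleted cells, and the immunoproteasome share of retained Id2 deleted cells 51.1%. When barcodes of at least 1000 UMIs and 500 genes were kept, the erythroid-like and neutrophil-like ratios of Id2 deleted cells were 1.37 and 1.09. The causes of these shifts were not tested. Of 429 values for single genes and core shares, 404 stayed within the counting interval of the reported value, 24 moved outside it and 1, with a reported interval clear of 1, reversed. Counted whatever the interval, 27 values of 7 genes crossed 1: Psma8, Psmc1, Psmc3, Psmd3, Psmd5, Psmd9 and Psmd10. The widest was Psmd9, at 0.93 in retained cells and 1.55 with no cell type removed. Of the 176 other values (sums, medians, counts and immunoproteasome shares), 127 stayed near the reported value and 49 moved. Scrublet marked too few cells to inform on doublets. Intervals cover counting error only, so they are narrower than the spread that replicate libraries would show.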
